A study of Mus musculus with 4 samples.

Results

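The brush border digestive enzymes are described here through 10 genes, picked by gene symbol (Lct, Sis, Mgam, Treh, Anpep, Dpp4, Enpep, Mep1a, Alpi and Mme) out of 56748 genes listed in the count table. RNA from small intestine (SI) tissue was sequenced in 2 p53+/+ mice (labelled WT) and 2 p53-/- mice. All 4 animals had received 12 Gy total body irradiation (TBI) and were collected at 1 day post-TBI, and the study's methods give age- and gender-matched mice of 8 to 12 weeks. The p53-/- mice lack p53 in every cell, immune cells included, and no unirradiated SI was analysed here, so each comparison is between genotypes after the same dose. Libraries 7 and 8 are p53+/+ and libraries 9 and 10 p53-/-, after the numbers in the names of the columns, which pair no animals. The segment of the SI is not stated in the labels.

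The brush border is the lawn of microvilli on the luminal side of absorptive enterocytes. Its membrane holds glycosidases that split disaccharides and starch fragments, peptidases that trim peptides from the pancreatic digest, and an alkaline phosphatase. Enterocytes gain these enzymes as they leave the crypt and mature along the villus, and several are graded along the length of the SI, with lactase and enteropeptidase known as proximal enzymes and bile acid uptake as a distal function. Transcription factors of the CDX and GATA families are known to act on promoters of this group, that of sucrase-isomaltase being a textbook case.

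The promoters of 5 of the genes are shown, namely those of the 3 genes with the clearest difference between genotypes (Mep1a, Treh and Alpi), that of Sis, whose groups overlapped, and that of Lct, which was close to absent. RefSeq promoter windows on GRCm38.p6 were matched for 10 of 10 genes, in 12 windows of 300 bases (3 for Mme), each from 250 bases before to 50 bases after the start. The 5 windows lie at chr17:43502724-43503023 (minus strand) for Mep1a, chr9:44672983-44673282 (plus strand) for Treh, chr1:87101557-87101856 (minus strand) for Alpi, chr3:72967814-72968113 (minus strand) for Sis and chr1:128328269-128328568 (minus strand) for Lct. Capitals mark the letters TTTAT (the core of CDX sites) and AGATAA (the core of sites bound by GATA factors), on either strand, and overlapping matches run together.
Mep1a: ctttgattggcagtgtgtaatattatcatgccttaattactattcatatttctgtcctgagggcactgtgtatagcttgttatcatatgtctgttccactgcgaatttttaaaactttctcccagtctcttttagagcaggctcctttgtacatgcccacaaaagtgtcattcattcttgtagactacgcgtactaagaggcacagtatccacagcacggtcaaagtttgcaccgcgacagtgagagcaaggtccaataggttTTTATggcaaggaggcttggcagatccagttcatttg
Treh: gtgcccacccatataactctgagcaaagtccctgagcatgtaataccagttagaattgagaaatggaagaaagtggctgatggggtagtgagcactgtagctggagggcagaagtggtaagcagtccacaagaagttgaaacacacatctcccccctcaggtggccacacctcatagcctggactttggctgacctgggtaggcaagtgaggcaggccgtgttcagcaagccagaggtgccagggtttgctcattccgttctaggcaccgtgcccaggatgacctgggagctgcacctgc
Alpi: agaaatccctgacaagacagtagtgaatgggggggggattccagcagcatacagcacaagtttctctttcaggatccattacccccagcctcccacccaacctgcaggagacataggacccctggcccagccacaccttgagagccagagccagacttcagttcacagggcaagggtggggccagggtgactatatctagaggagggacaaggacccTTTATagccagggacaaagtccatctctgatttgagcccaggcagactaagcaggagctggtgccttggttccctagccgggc
Sis: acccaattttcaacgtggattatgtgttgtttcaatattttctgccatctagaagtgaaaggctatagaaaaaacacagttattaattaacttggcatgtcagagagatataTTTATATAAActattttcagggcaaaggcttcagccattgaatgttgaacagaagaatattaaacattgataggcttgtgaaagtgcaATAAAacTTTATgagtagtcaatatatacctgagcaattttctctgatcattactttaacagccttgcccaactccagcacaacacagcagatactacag
Lct: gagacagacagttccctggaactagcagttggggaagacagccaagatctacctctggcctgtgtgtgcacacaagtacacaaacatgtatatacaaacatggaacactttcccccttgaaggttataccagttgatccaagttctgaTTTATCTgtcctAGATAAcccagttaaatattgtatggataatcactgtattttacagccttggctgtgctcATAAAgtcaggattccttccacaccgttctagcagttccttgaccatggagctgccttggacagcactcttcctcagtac

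Of the 12 windows, 7 held TTTAT and 3 held AGATAA. Over 32851 RefSeq mouse promoter windows of the same length the shares were 40% and 11.2%. Because TTTAT on the reverse strand reads ATAAA, it overlaps TATAAA, the letters of a TATA box. In Alpi the only match, 33 bases before the start, lay in TTTATA, which is TATAAA on the opposite strand. In Sis 2 of the 4 matches, 138 and 133 bases before the start, overlapped TATAAA on either strand. In Lct a TTTAT match shares bases with an AGATAA match. The Treh window held neither motif, and Mep1a held 1 TTTAT, 14 bases past the start. A decamer of the p53 response element was in 0 of the 12 windows, against 8.36% of all windows. These matches describe letters in a window only.

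The libraries held 15005479 to 22173164 counts, and 16094 genes passed the filter on low counts, all 10 enzyme genes among them. Levels are given as CPM, the read counts of a gene relative to the size of its library after TMM scaling, which fits the libraries to each other. Trp53 itself was at 57.7 and 47.1 CPM in p53+/+ and 19.8 and 22.5 CPM in p53-/- SI. Library 10 stood apart, with 4.59% of its counts on the ribosomal gene Rn18s-rs5 against 0.296 to 0.863% in the others, and so did library 8, with a summed level of 5 smooth muscle genes of 3672 CPM against 395 to 855 CPM in the others. Library 7 had the lowest summed level of 6 stromal genes, at 135 CPM against 476 to 668 CPM in the others. It also had the highest level of the distal gene Fabp6, at 5483 CPM against 1639 to 2072 CPM. Comparisons are therefore also given without library 10, and for some lists without library 7 or another library. Replicate libraries were further apart than counting noise allows, and the p-values measure the spread between them, which the study's methods call biological.

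Together the 10 genes took 1.62 and 2.12% of all counts in p53+/+ and 1.79 and 1.31% in p53-/- SI. Anpep alone made up 46.2 to 55.0% of the counts of the group. Ranked by mean CPM among the 16094 genes tested, Anpep was at position 2 in p53+/+ and 5 in p53-/- SI, and 8 of the 10 genes reached 100 CPM in each of the 4 libraries.

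Levels of different genes were compared per kilobase of exon length. In p53+/+ SI the order of the mean CPM per kilobase was Anpep (2309), Mep1a (752), Enpep (491), Alpi (250.1), Sis (186), Mgam (167), Dpp4 (128), Treh (88.7), Mme (17.5) and Lct (0.133). No neighbours in this order overlapped between their 2 libraries. In p53-/- SI the order was Anpep (2001), Enpep (344), Mep1a (275), Mgam (200.2), Sis (178), Alpi (131), Dpp4 (110.3), Treh (49.0), Mme (14.4) and Lct (0.080). There Enpep and Mep1a, Mgam and Sis, and Alpi and Dpp4 each overlapped between libraries. Within library 9 and within library 10, Enpep was above Mep1a and Alpi above Dpp4. Mgam was above Sis in library 9 and below it in library 10, so the order of Mgam and Sis is not resolved. Alpi was above Sis and Mgam in both p53+/+ libraries and below them in both p53-/- libraries.

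**Figure D1:**
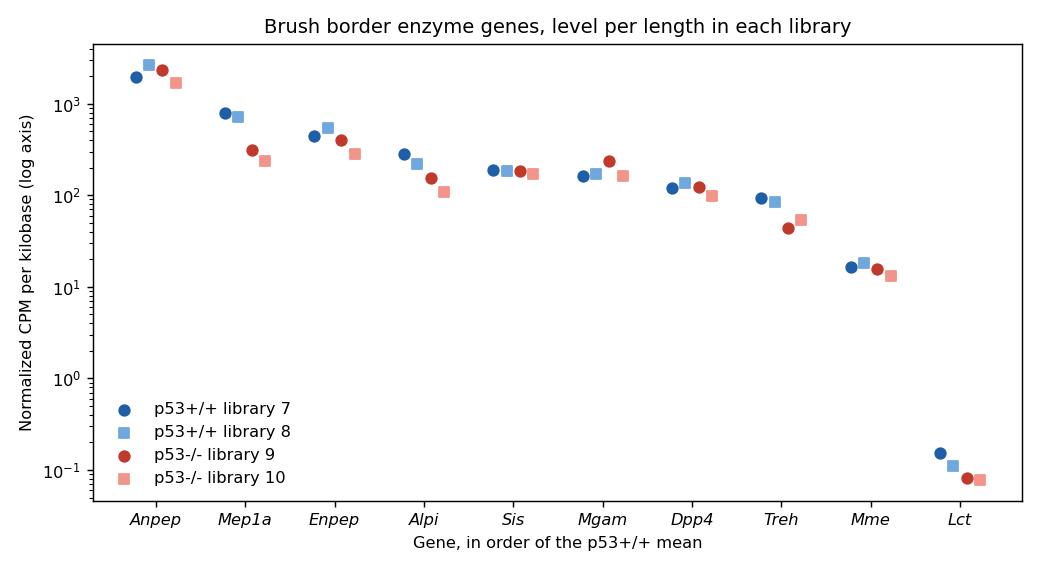
Level of each enzyme gene in normalized CPM per kilobase of exon length (log axis), with 1 point per library, blue for p53+/+ and red for p53-/-. Anpep is the highest gene in every library and Lct the lowest, and for Mep1a, Alpi and Treh the red points lie below both blue points.

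Between genotypes, 0 of the 10 genes passed the threshold (adjusted p under 0.05, edgeR's quasi-likelihood test over all 16094 genes), where 0.193% of all genes were called lower and 0.298% higher in p53-/- SI. With an unadjusted p under 0.05, 3 of 10 were lower and 0 higher, against 7.92% and 10% of all genes. The same 3, Mep1a, Treh and Alpi, were past the adjusted threshold with DESeq2, against 4.12% of genes lower and 5.05% higher, and 3 were past it with edgeR's likelihood ratio test, against 2.87% lower and 5.18% higher. With no filter on low counts the quasi-likelihood test also called 3, against 2.73% of genes lower and 5.15% higher. The p53-/- libraries were both below both p53+/+ libraries for 6 of 10 genes (Mep1a, Treh, Alpi, Enpep, Mme and Lct) and above them for 0, against 24.4% and 26.4% of all genes, and library 10 was the lowest of the 4 for 8 of the 10. The log2 fold change was negative for 9 of 10 genes, with a median of -0.40 against -0.01 over all genes tested. Without library 10 the median was -0.17 with 7 of 10 negative, and with libraries scaled to genes of all epithelial cells it was -0.10 with 5 of 10 negative. The epithelial scaling also moved the median over all genes, to 0.32, here and wherever it is used below. In whole tissue, fewer enterocytes and less RNA per enterocyte cannot be told apart.

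**Figure D2:**
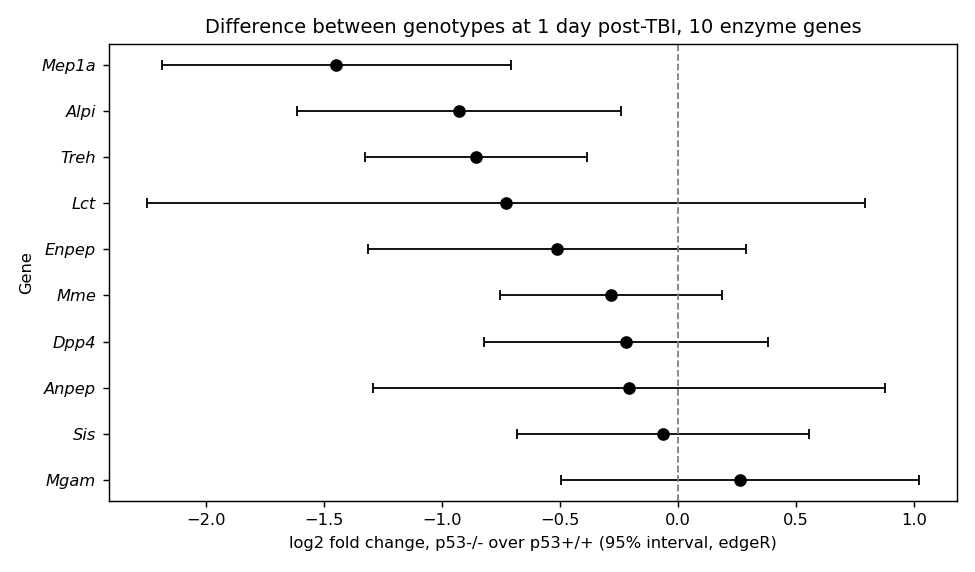
Log2 fold change of p53-/- over p53+/+ for the 10 genes, with the 95% interval of the edgeR fit from 2 libraries per genotype. The intervals of Mep1a, Alpi and Treh lie below 0 and those of the other genes include 0.

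Among the peptidases, Mep1a, which encodes the alpha subunit of the metalloprotease meprin, had the largest difference. Its level was 2731 and 2457 CPM in the p53+/+ libraries and 1080.2 and 821 CPM in the p53-/- libraries. Both p53-/- values were thus far below both p53+/+ values, with means of 2594 ± 194 and 951 ± 183 CPM (SD, n = 2), and the p53-/- mean was 36.6% of that in p53+/+. The log2 fold change was -1.45 (standard error 0.295, interval -2.19 to -0.71), with an adjusted p of 0.109 in edgeR's quasi-likelihood test and 1.01e-09 in DESeq2. Without library 10 it was -1.21. Its partner Mep1b, the beta subunit, was at 1554, 1426, 1450 and 1256 CPM in libraries 7 to 10, which overlapped between genotypes (log2 fold change -0.14). Within a library, the ratio of Mep1a to Mep1b counts was 1.76 and 1.72 in p53+/+ and 0.745 and 0.654 in p53-/- SI, a comparison that no scaling between libraries can move.

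Enpep, the glutamyl aminopeptidase, was at 2065 and 2556 CPM in p53+/+ and 1896 and 1342 CPM in p53-/- SI. The groups did not overlap, but library 9 was close to library 7, and the log2 fold change of -0.51 (standard error 0.320, interval -1.32 to 0.29) had an adjusted p of 0.478 by edgeR. Mme, the neutral endopeptidase neprilysin, was at 191 and 212 against 181 and 151 CPM, which also did not overlap, with a log2 fold change of -0.28 (interval -0.76 to 0.19). Without library 10 the values were -0.24 for Enpep and -0.11 for Mme.

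Anpep, or aminopeptidase N, the most abundant enzyme of the group, was at 8097 and 11001 CPM in p53+/+ and 9591 and 6957 CPM in p53-/- SI. The 2 libraries of each genotype differed more from each other than the means of 9549 ± 2053 and 8274 ± 1863 CPM (SD, n = 2), and the interval of its log2 fold change was wide (-1.29 to 0.88). Dpp4, which removes dipeptides from peptides that carry proline, was at 761, 863, 771 and 623 CPM in libraries 7 to 10, and overlapped between genotypes (log2 fold change -0.22, interval -0.82 to 0.38). These intervals leave room for a change of either sign.

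Dpp4, Anpep, Enpep and Mme are also known on cells outside the epithelium, such as lymphocytes, myeloid cells and stromal cells. The summed level of 7 T cell genes was 5.88 and 12.2 CPM in p53+/+ and 52.6 and 96.9 CPM in p53-/- SI, and all 7 had an unadjusted p under 0.05 with 0 past the adjusted threshold in edgeR and 7 in DESeq2. Over all genes, 10% were higher at an unadjusted p under 0.05 and 5.05% were higher in DESeq2. For 6 B cell genes the sums were 1.11, 1.82, 21.8 and 431 CPM, with Pax5 at 0 in both p53+/+ libraries. For 6 macrophage and monocyte genes they were 53.3, 116, 155 and 525 CPM, and for 6 stromal genes 135, 668, 476 and 485 CPM. Their part in the levels of the 4 peptidases was not tested.

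Among the glycosidases, Treh, which encodes trehalase, the enzyme that splits trehalose into glucose, was at 193 and 171 CPM in p53+/+ and 90.6 and 110.0 CPM in p53-/- SI. The groups were well apart, at 182 ± 15.4 and 100.3 ± 13.7 CPM (SD, n = 2), and the p53-/- mean was 55.2% of that in p53+/+. The log2 fold change was -0.86 (standard error 0.188, interval -1.33 to -0.39), with an adjusted p of 0.119 in edgeR's quasi-likelihood test and 0.000722 in DESeq2. Library 9 was the lowest for this gene, and without library 10 the log2 fold change was -0.95.

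Sis, the sucrase-isomaltase that splits sucrose and the branch points of starch, overlapped between genotypes. It was at 1409.9 and 1368 CPM in p53+/+ and 1388 and 1270.2 CPM in p53-/- SI, with means of 1389 ± 29.3 and 1329 ± 83.2 CPM (SD, n = 2). Its log2 fold change was -0.06 (interval -0.68 to 0.56, adjusted p of 0.929 by edgeR). Mgam, the maltase-glucoamylase that acts beside it on starch fragments, was at 1413, 1494, 2067 and 1418 CPM in libraries 7 to 10. Library 9 alone was high, the groups overlapped, and the log2 fold change was 0.26 (interval -0.50 to 1.02) and -0.04 without library 9. The ratio of Mgam to Sis counts was 1.00 and 1.09 in p53+/+ and 1.49 and 1.12 in p53-/- SI. Mgam2-ps, a close relative of Mgam whose reads could be split with it, was at 75.9, 93.5, 145 and 105 CPM and did not pass the threshold (log2 fold change 0.56, adjusted p of 0.278 by edgeR).

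Lct, the lactase of suckling and proximal SI, had 16, 11, 12 and 10 counts in libraries 7 to 10, or 0.990, 0.714, 0.526 and 0.497 CPM. The p53-/- values were the lower ones, but with so few counts the log2 fold change of -0.73 had an interval of -2.25 to 0.79, and no difference was detectable at this depth.

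Alpi, the alkaline phosphatase of the enterocyte surface, which removes phosphate from luminal substrates such as lipopolysaccharide, was at 657 and 512 CPM in p53+/+ and 362 and 252 CPM in p53-/- SI. The groups did not overlap, at 584 ± 102 and 307 ± 77.8 CPM (SD, n = 2), and the p53-/- mean was 52.5% of that in p53+/+. The log2 fold change was -0.93 (standard error 0.274, interval -1.62 to -0.24), with an adjusted p of 0.182 in edgeR's quasi-likelihood test and 0.00569 in DESeq2. Without library 10 it was -0.63. Its relatives were nearly absent, with 3, 2, 5 and 18 counts for Akp3, the phosphatase known from the duodenum, and 17, 19, 20 and 8 counts for Alppl2, and reads could be split among the 3 genes.

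Of 14 other hydrolases of the brush border, 11 passed the filter, and 1 was higher and 0 lower past the threshold (edgeR). At an unadjusted p under 0.05, 6 were lower, against 7.92% of all genes. In DESeq2 7 were lower past the threshold, against 4.12% of all genes. The median log2 fold change of the 11 genes was -0.70, and -0.37 with scaling to genes of all epithelial cells. Asah2, the neutral ceramidase, which splits ceramide from the diet, was the gene that rose, from 14.5 and 12.1 CPM in p53+/+ to 77.7 and 79.6 CPM in p53-/- SI (log2 fold change 2.56, standard error 0.172, adjusted p of 0.0155 by edgeR). Without library 10 no gene of this list, and none of all genes tested, was past the threshold. Naaladl1, a peptidase, was the most abundant of the list in CPM, at 7042 and 6388 in p53+/+ and 3146 and 2327 in p53-/- SI (log2 fold change -1.30, adjusted p of 0.170 by edgeR). The ecto-nucleotidase gene Nt5e was at 56.0 and 78.8 against 25.9 and 14.6 CPM (log2 fold change -1.73), the lowest fold change of the list.

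Values of the same sign were found for the aminopeptidase Xpnpep2 (log2 fold change -0.90), the sphingomyelinase Enpp7 (-0.90), the dipeptidase Dpep1 (-0.81) and the glutamyltransferase Ggt1 (-0.51), for each of which both p53-/- libraries were below both p53+/+ libraries. The groups overlapped for Ace (-0.02), Mep1b and the phospholipase Plb1 (0.89). Folh1, the folate hydrolase, and Tmprss15, the enteropeptidase that activates trypsinogen, had 0 counts in all 4 libraries. Among the remaining relatives of the enzyme genes, Fap, Klb, Gaa and Ganc overlapped between genotypes, and Mmel1 and Lvrn, at 15 counts or fewer, were not tested.

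**Figure D3:**
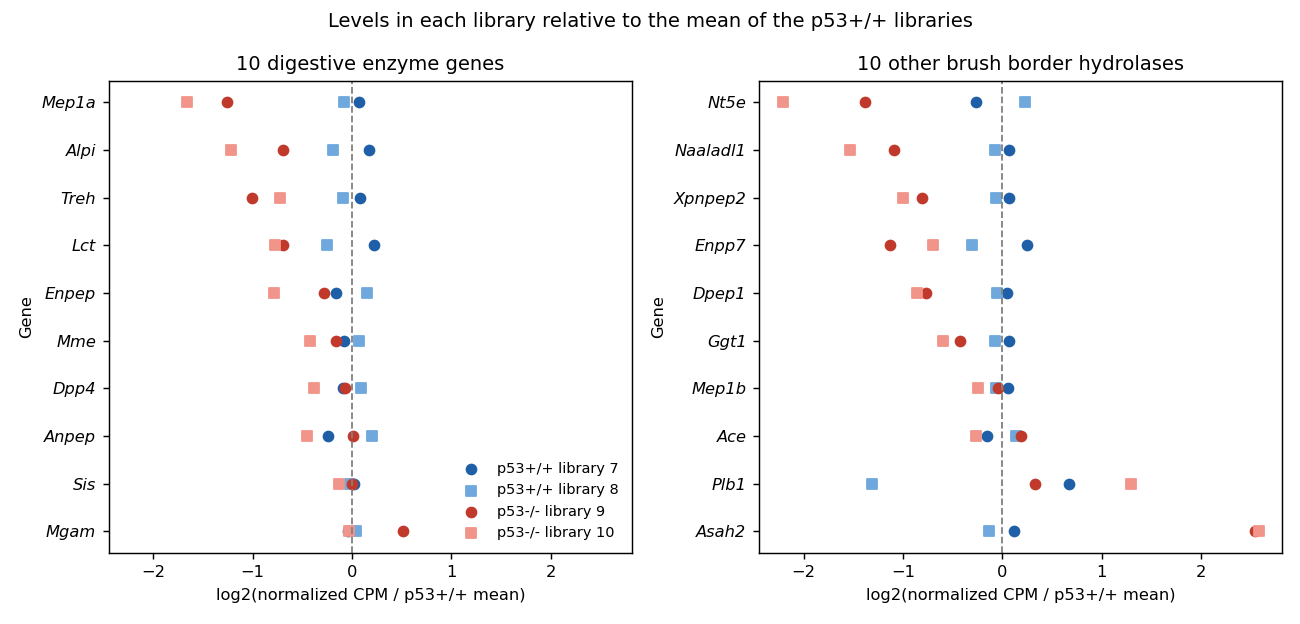
Level of each gene in each library on a log2 scale relative to the p53+/+ mean, for the 10 enzyme genes (left) and 10 other hydrolases (right), with 1 point per library. Mep1a, Alpi and Treh are low in both p53-/- libraries like Nt5e, Naaladl1 and Xpnpep2, Sis and Mep1b lie near 0, and Asah2 is high in both.

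The microvilli themselves are built from actin bundles, myosins and protocadherin links. All 16 genes of that list had a negative log2 fold change, 12 with groups that did not overlap, and 0 passed the threshold in edgeR, with 5 at an unadjusted p under 0.05 and 7 lower in DESeq2. Over all genes, 8165 of 16094 were negative, and 24.4% were lower with groups that did not overlap. At an unadjusted p under 0.05, 7.92% were lower and 10% higher, and 4.12% were lower in DESeq2. The median of the 16 structure genes was -0.48, and -0.25 without library 10 or -0.15 with scaling to genes of all epithelial cells. The lowest value was that of Tmigd1 (-1.40, adjusted p of 0.0993 by edgeR) and the highest that of the actin bundler Espn (-0.03). Of 12 enterocyte markers 0 passed as well, with 4 lower and 1 higher at an unadjusted p under 0.05 and 5 lower in DESeq2. Their median was -0.64 (-0.33 without library 7, -0.28 with the same epithelial scaling), from -1.72 for the lipoprotein gene Apoa4 to 0.77 for the fructose transporter Slc2a5.

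Of 16 transcription factors of enterocytes, 0 passed the threshold in edgeR. At an unadjusted p under 0.05, 3 were lower and 2 higher, against 7.92% and 10% of all genes. In DESeq2 3 were lower and 1 higher, against 4.12% and 5.05% of all genes. The median log2 fold change of the list was -0.37. This median was -0.12 without library 7 and -0.12 without library 10. It was 0.0035 with scaling to genes of all epithelial cells, where the median over all genes was 0.32. Cdx2, the intestinal identity factor, was at 533 and 338 CPM in p53+/+ and 231 and 204 CPM in p53-/- SI (log2 fold change -1.0, adjusted p of 0.167 by edgeR). Gata4, a factor of proximal SI, had 38, 7, 73 and 83 counts and the highest log2 fold change (1.38, adjusted p of 0.440 by edgeR). The lowest was that of Creb3l3, a factor of lipid metabolism, at 498 and 164 against 56.8 and 52.4 CPM (-2.60, adjusted p of 0.111 by edgeR).

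The position along the SI was read from genes known to be graded along it. Of the proximal genes, Pdx1 had 2, 0, 1 and 6 counts, Onecut2 7, 2, 19 and 40, Cybrd1 28, 43, 111 and 151, Fabp1 88, 58, 55 and 81, and the iron exporter Slc40a1 524, 327, 2099 and 1484. Of the distal genes, the bile acid binding protein Fabp6 was at 5483, 1836, 1639 and 2072 CPM in libraries 7 to 10. The bile acid transporter Slc10a2 was at 1035, 1293, 785 and 717 CPM. Fgf15, also given below, had 897, 304, 104 and 133 counts. Per kilobase of exon length, Fgf15 was at 18.2, 6.45, 1.49 and 2.16 CPM in libraries 7 to 10. Slc40a1 was at 3.60, 2.36, 10.2 and 8.20 CPM per kilobase. Fgf15 was thus above Slc40a1 in both p53+/+ libraries and under it in both p53-/- libraries. Lct, Akp3, Tmprss15 and Folh1, at or near 0 above, are read beside these values.

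The segment genes were also compared between genotypes. Of 5 proximal genes tested, 4 had a higher level in both p53-/- libraries, against 26.4% of all genes. At an unadjusted p under 0.05, 3 were higher, against 10% of all genes. None passed the threshold in edgeR and 1 was higher in DESeq2, against 5.05% of all genes. The proximal median log2 fold change was 1.45. Of 5 distal genes, 4 were lower at an unadjusted p under 0.05, against 7.92% of all genes. None passed in edgeR and 3 were lower in DESeq2, against 4.12% of all genes. The distal median was -0.98 (-0.78 without library 7, -0.52 with scaling to genes of all epithelial cells). It was the value of Fabp6, whose groups overlapped. Fgf15, the ileal hormone induced by bile acids, was at 55.5 and 19.7 against 4.56 and 6.62 CPM (-2.75), Cubn, which takes up cobalamin with intrinsic factor, was at 667, 854, 325 and 241 CPM (-1.43), and Osr2 was at 182, 144, 120.0 and 101 CPM (-0.56). Their part in the lower Mep1a, Treh and Alpi was not tested.

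**Figure D4:**
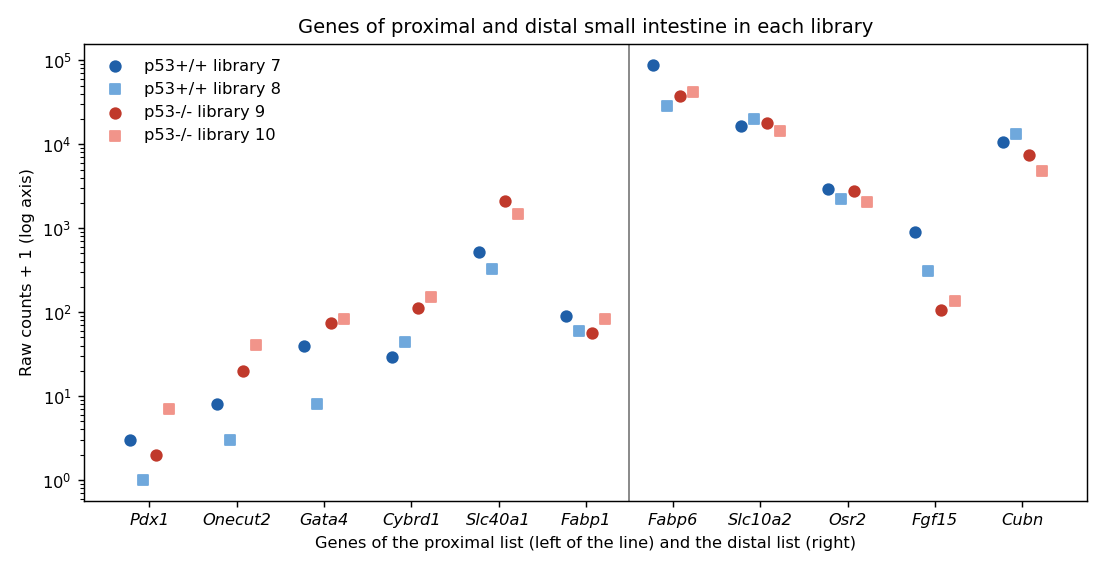
Raw counts plus 1 (log axis) of genes of proximal (left) and distal SI (right), with 1 point per library. Pdx1, Onecut2 and Gata4 stay below 100 counts in every library, while Fabp6 and Slc10a2 lie above every proximal gene in each library.

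Genes shared by all epithelial cells were read beside the enzymes. The summed level of 15 such genes was 21226 and 15150 CPM in p53+/+ and 14045 and 11903 CPM in p53-/- SI. The median of their log2 fold changes was -0.35 (-0.11 without library 7, -0.22 without library 10), with 1 higher and 1 lower at an unadjusted p under 0.05 and 0 past the threshold in edgeR (2 lower in DESeq2). Over all genes, 10% were higher and 7.92% lower at such a p, and 4.12% were lower in DESeq2. When libraries were scaled to the 15 epithelial genes in place of TMM, the median log2 fold change of all genes became 0.32. That of the 10 enzyme genes became -0.10. A change of scaling moves all genes by nearly the same amount. The difference between these 2 medians, -0.42 in place of -0.39, could therefore hardly move and tests nothing. With this scaling Mep1a was at -1.12, Alpi at -0.59 and Treh at -0.50, Sis was at 0.26, and Anpep, Dpp4 and Mme turned to 0.07, 0.08 and 0.02.

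Other cell types were read from their own markers. Over all genes, 10% were higher at an unadjusted p under 0.05 and 5.05% were higher in DESeq2. The median log2 fold change was 1.10 for proliferation genes (4 of 6 higher at an unadjusted p under 0.05, 3 of 6 past the threshold in DESeq2). It was 0.63 for Paneth cell genes (2 of 5 higher at an unadjusted p under 0.05, median 0.37 without library 8), 0.12 for crypt stem cell genes, 0.08 for enteroendocrine genes, -0.18 for tuft cell genes and -0.28 for goblet cell genes. Of these, the stem cell median was -0.027 without library 9, the enteroendocrine one -0.30 without library 8 and 0.36 without library 7, and the tuft and goblet cell ones -0.037 and -0.0055 without library 10. Scaling to genes of all epithelial cells turned the last pair to 0.14 and 0.033. The stem cell gene with the largest value was Olfm4, at 47.6 and 16.0 CPM in p53+/+ and 473 and 525 CPM in p53-/- SI (log2 fold change 3.97, adjusted p of 0.0587 by edgeR). The lowest was Ascl2, at 12.0 and 9.28 against 7.23 and 4.82 CPM (-0.82, adjusted p of 0.320 by edgeR). Of the 6 stem cell genes, 3 were positive and 3 negative. The villus tip genes had a median of -0.79, which was 0.34 without library 7, and Nt5e was the lowest of them and Slc28a2 the highest (0.45). None of these epithelial lists had a gene past the threshold in edgeR. Of 5 adipocyte genes 1 passed, Cfd, with 175, 244, 0 and 1 counts, and Plin1 was at 0 in both p53-/- libraries. No gene of the exocrine pancreas exceeded 7 counts in a library. The part of these differences in the enzyme levels was not tested.

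**Figure D5:**
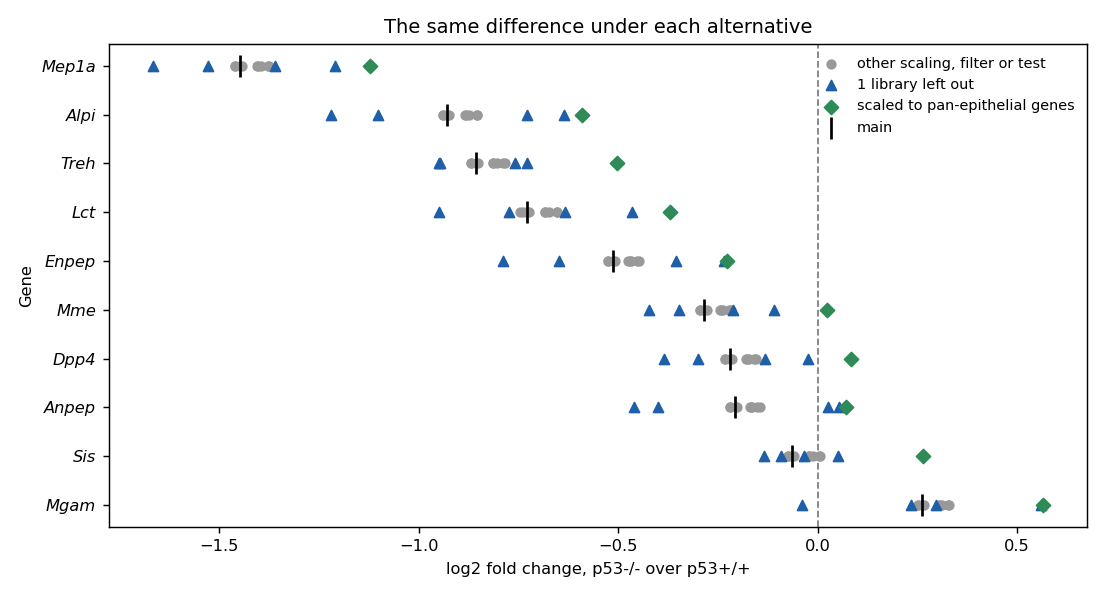
Log2 fold change of each enzyme gene with the main settings (bar) and under 14 alternatives, with grey points for other scaling, filters or tests, triangles for 1 library left out and diamonds for scaling to pan-epithelial genes. Mep1a, Alpi, Treh, Lct and Enpep stay below 0 under every alternative, and Sis and Anpep lie on either side of 0.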

How the data were processed

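RNA of SI tissue from 2 p53+/+ and 2 p53-/- mice was sequenced at 1 day post 12 Gy TBI. The authors deposited raw read counts per gene, with no normalization. The submitters' processing notes name fastp, HISAT2 2.0.5, featureCounts 1.5.0-p3 and DESeq2 1.20.0. The genome build and the strand of the counting are not given in the sources used here, so reads of paralogs, antisense and overlapping genes could have been split.

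From these counts, TMM factors, filterByExpr and the quasi-likelihood test of edgeR 4.0.16 (R 4.3.3) were applied to all 4 libraries with genotype as the only term, two-sided, with Benjamini-Hochberg adjustment over the 16094 genes that remained (threshold 0.05). CPM are counts scaled to the TMM library sizes, and intervals are 95% intervals of the fit. Exon lengths for CPM per kilobase came from GENCODE M21, matched by gene identifier for 10 of 10 genes. Motifs were matched in RefSeq promoter windows.

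The genes named are the 10 enzymes, Trp53, other hydrolases, close relatives and segment genes, Cdx2 and Gata4, and of each other list the genes past the threshold, with the highest or lowest fold change, or with no more than 3 counts in each library of a genotype. Not all of these are printed, and some genes are not reported here. Members and lists were chosen with earlier results of these data known, so lists are described by counts and medians without a test. The steps were tested on simulated data. As alternatives, libraries were scaled by size alone, by RLE, by upper quartiles or to pan-epithelial genes. DESeq2 1.42.0 and the likelihood ratio test of edgeR replaced the main test, the filter was dropped or raised to 10 counts in each library, and the 50 most abundant other genes, the antigen receptor segments or 1 library at a time were removed.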

Additional observations from a re-analysis of the deposited data

How the results depend on the processing

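Of the 10 enzyme genes, Mep1a, Treh, Alpi, Enpep and Lct kept their sign in 14 of 14 alternatives. The number past the threshold, 0 with the quasi-likelihood test, was 3 with DESeq2, 3 with edgeR's likelihood ratio test and 3 with no filter on low counts. Over all genes these settings called 663 lower and 812 higher, 462 and 833, and 761 and 1433 genes, against 31 and 48 in the main test. Under these 3 alternatives the log2 fold change was -1.46, -1.45 and -1.40 for Mep1a, -0.87, -0.86 and -0.81 for Treh, and -0.94, -0.93 and -0.88 for Alpi, with adjusted p from 1.01e-09 to 0.0313. Over all 14 alternatives the adjusted p ran from 1.01e-09 to 0.640 for Mep1a, from 0.000722 to 0.533 for Treh and from 0.00569 to 0.790 for Alpi. With 1 library left out, the lone library of a genotype is assumed to vary like those of the other. Without a filter the median over all genes rose to 0.15, and with pan-epithelial scaling to 0.32. The median log2 fold change of the 10 genes, -0.40, was -0.10 with scaling to pan-epithelial genes and ranged from -0.59 (without library 9) to -0.17 (without library 10) with 1 library left out. The sign of Sis turned with library size only (0.0031), with pan-epithelial scaling (0.26) and with at least 10 counts in every library (0.0065), and ranged from -0.13 to 0.052 with 1 library left out. That range was -0.46 to 0.054 for Anpep, positive without library 8 or 10, and -0.040 to 0.56 for Mgam, negative without library 9. Pan-epithelial scaling gave 0.070 for Anpep, 0.083 for Dpp4 and 0.024 for Mme. The cause of these turns was not tested.

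In the order DESeq2, likelihood ratio test and no filter, the number past the threshold was 8, 5 and 5 for the other hydrolases (1 in the main test, 0 to 2 with 1 library left out), 7, 3 and 2 for structure genes (0, and 0 to 1), 4, 3 and 4 for transcription factors (0, and 0 to 2) and 34, 30 and 43 for markers of cells and segments (1, and 0 to 22). For these markers it was also 0 with library size only, 5 with pan-epithelial scaling and 0 with at least 10 counts in every library. The lower end of each of these ranges includes the fit without library 10, where no gene of the whole table was called. Calls over all genes also rose with DESeq2, the likelihood ratio test and no filter, and without library 7 or 8. The counts of list genes are therefore not read as a result about the lists. The level of Sis per kilobase in p53+/+ SI was 182 with library size only against 186. A fit on another gene length was not run, as the table holds none. No paired analysis was possible because the columns carry no replicate number of the labels. With 2 libraries per genotype, changes smaller than the intervals given could not be resolved, and counts of 18 or fewer, as for Lct and Akp3, leave little to compare.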

Other observations

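Within each library, the share of the counts of the 10 enzyme genes that fell on a given gene does not depend on scaling between libraries. For Mep1a the share was 15.6 and 11.9% in p53+/+ and 6.20 and 6.34% in p53-/- SI. For Alpi it was 3.75 and 2.48% against 2.08 and 1.95%, for Mgam 8.06 and 7.24% against 11.9 and 10.95%, and for Sis 8.05 and 6.63% against 7.96 and 9.81%. For Treh it was 1.10 and 0.828% against 0.520 and 0.850%, which overlapped between genotypes. These shares add up within a library, so a lower share of 1 gene raises the others.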
